A study of Vitis vinifera with 74 samples.

Results

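The early response of grapevine buds to abscisic acid (ABA) was described from 6 of the 74 samples of the series, the 3 count columns of ABA-treated buds and the 3 count columns of control buds collected 6 h after treatment. They were chosen by their labels (deacclimation experiment, bud, 6 h). Dormant canes of field-grown vines of the cultivar Cabernet Franc had met their chilling requirement and were cut into single-node cuttings, which stood in water in a warm growth room until the buds reached the woolly stage. ABA buds were then sprayed to runoff with S-ABA from a commercial growth regulator (1322 mg per litre, 5 mM), and control buds with deionized water alone. The labels name a surfactant for the leaf sprays and none for the bud sprays, and do not say how many buds went into a library. Buds taken before the spray, buds of both treatments at 12, 24, 48 and 72 h, and leaves of potted vines were used for comparison. The vines were sprayed with S-ABA (500 mg per litre, 1.9 mM) or with water, both with surfactant, and their leaves were taken at 2, 4, 24 and 48 h.

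ABA is the plant hormone of drought, cold and dormancy. It is perceived by soluble receptors that, once bound, block a class of protein phosphatases, which frees kinases that switch on transcription factors of stress and storage genes. In buds of woody plants it is known for holding back bud break. Deacclimation, the loss of winter hardiness under warmth, precedes that step, and the woolly stage is the point at which the bud scales part and the hairs below them show. The deposited tables and the gene table at hand pair none of the 42413 gene identifiers with a name, so that the bud label could not be checked against marker genes, no role is given to any gene, and genes are described by their behaviour. At most 2 identifiers that were higher and 2 that were lower are printed.

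Libraries were made from the 3′ ends of polyadenylated transcripts, and the values were raw counts per gene. The 3 ABA columns held 1598497, 1761767 and 1562976 counts, and the 3 control columns 2311285, 2616086 and 2311559. Within a group, pairs of columns gave chi-square values of 1.02 to 1.09 per degree of freedom (6 pairs, genes of 20 or more counts), where 1 is sampling noise, while the 9 pairs of an ABA and a control column gave 14.6 to 17.2. Triplicate sequencing of every library is recorded in the labels. The 3 columns were summed to 1 sample per group, with 4923240 counts for ABA and 7238930 for control. With 1 sample per group the 6 h difference has no replicate check and no p-value, and the intervals given below cover counting error only. The buds were sampled whole, so that a change in the number of cells of a type and a change in RNA per cell cannot be told apart.

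Among genes at least 2-fold apart between ABA and control buds at 6 h, more stood higher with ABA than lower. Of 16214 genes kept after filtering, 1708 (10.5%) were at least 2-fold higher with ABA and 874 (5.39%) at least 2-fold lower, on the scale of log2 CPM (counts divided by library size) with a prior count of 2. The excess of higher genes grew with the size of the difference. At least 4-fold higher were 406 genes and 4-fold lower 77. At 8-fold these numbers were 108 and 6, and at 16-fold 29 and 0. The median log2 difference was 1.43 over the 1708 higher genes (quartiles 1.16 and 1.96, maximum 6.23) and −1.28 over the 874 lower genes (quartiles −1.57 and −1.11, minimum −3.72), against 0.00 over all genes (quartiles −0.40 and 0.47).

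**Figure D1:**
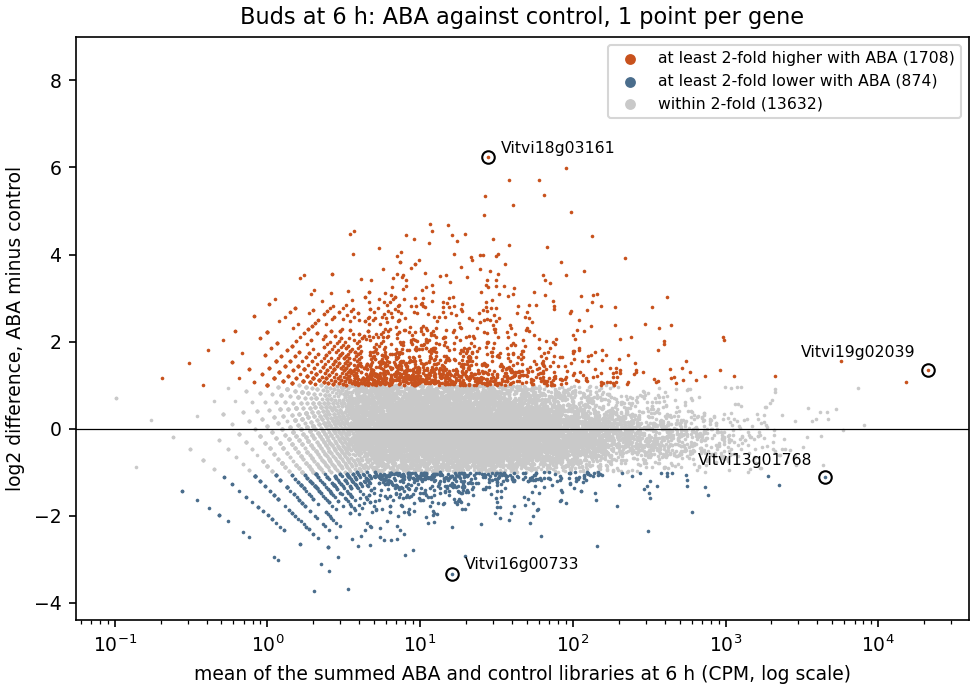
Each point is 1 of 16214 genes, with its mean level in the summed ABA and control bud libraries of 6 h (CPM, log scale) across and its log2 difference, ABA minus control, up. The 1708 genes at least 2-fold higher reach 6.23, the 874 at least 2-fold lower reach −3.72, and the 4 circled genes are those named in the text.

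The median level of the higher genes lay below that of all genes, most of all in control. It was 11.9 CPM with ABA and 3.46 CPM in control, where all genes had 15.0 and 14.1 CPM. That of the lower genes was 3.49 CPM with ABA and 9.20 CPM in control. Of the 3649 genes with a mean of 1 to 5 CPM, 16.1% were at least 2-fold higher and 9.51% at least 2-fold lower. Among the 6361 genes with a mean of 5 to 25 CPM, 11.0% were at least 2-fold higher and 4.98% at least 2-fold lower. Of the 4551 genes in the next band, from 25 CPM to 5 times that level, these shares were 6.66% and 2.99%, and of the 1440 genes above it 5.28% and 2.57%.

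Counting noise set the lowest levels apart from the rest. Between single columns of the same group, which hold about the depth of 1 sequencing run, 13.4% to 16.6% of the genes at 1 to 5 CPM were at least 2-fold apart either way. At 5 to 25 CPM this share was 2.22% to 3.65%, in the band from 25 CPM at most 0.132%, and in the highest band 0 in all 6 pairs. Of the 12352 genes with at least 5 CPM on average, 1081 (8.75%) were at least 2-fold higher with ABA and 490 (3.97%) at least 2-fold lower. All 3 ABA columns lay above all 3 control columns in 1066 of these 1081 genes, and below them in 481 of the 490. Over all genes of any size of difference the columns stood apart in this way in 24.8% (ABA above) and 25% (ABA below). The 1081 and 490 genes were chosen from the sums of these same columns. Their separation therefore follows largely from that choice and is no replicate check.

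**Figure D2:**
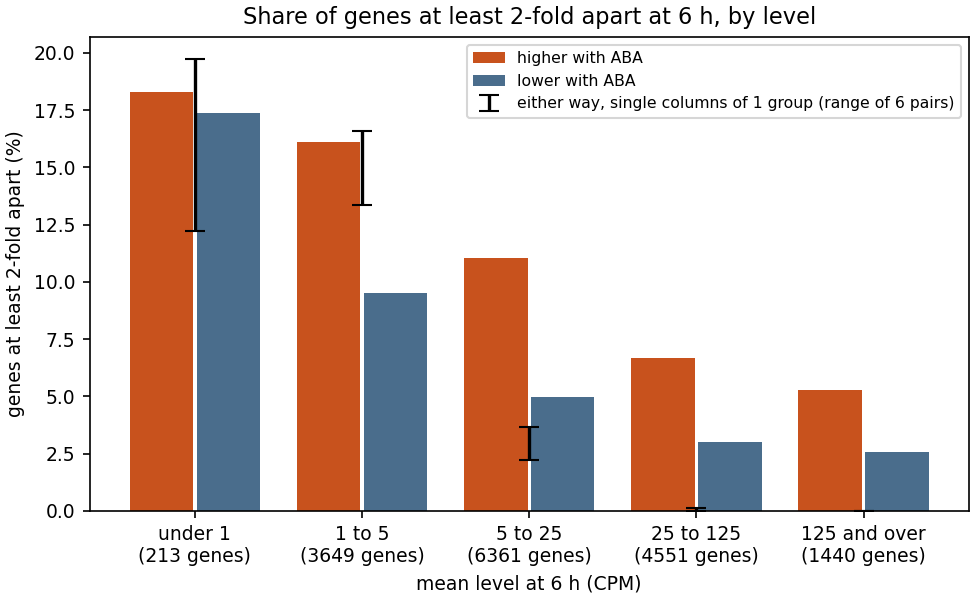
Bars give the percentage of genes at least 2-fold higher with ABA (left bar) and at least 2-fold lower (right bar) at 6 h, by mean level in CPM. Black ranges give the percentage at least 2-fold apart either way between single columns of the same group (6 pairs), which reaches 16.6% at 1 to 5 CPM and at most 0.132% from 25 CPM upward.

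The 1708 higher genes took 13.3% of all counts in the ABA library (95% Wilson interval 13.26% to 13.32%), 4.90% in the control library (4.88% to 4.91%) and 3.93% in the pre-treatment library (3.92% to 3.95%). For the 874 lower genes the shares were 1.81% with ABA (1.79% to 1.82%), 4.39% in control (4.38% to 4.41%) and 4.01% before treatment (4.00% to 4.03%). Few genes carried much of this shift. Over the higher genes the gain summed to 85284 CPM, of which 1 gene held 21.8% and 10 genes 49.2%. Over the lower genes the loss summed to 25761 CPM, with 12.7% from 1 gene and 40.0% from 10. The 10 most abundant genes together held 10.3% of the counts in the ABA library and 6.53% in the control library.

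The gene with the largest log2 difference among genes with at least 5 CPM on average and separated columns, Vitvi18g03161, was close to absent from buds without ABA. It had 83, 95 and 93 counts in the 3 ABA columns (52.5, 54.5 and 60.1 CPM), against 1 count in each of the 3 control columns (0.433, 0.383 and 0.433 CPM). Separated columns were a condition for naming a gene, here and below, so that the separation itself is no result. The ratio of the summed libraries was 134, with a 95% counting interval of 45.4 to 654 that is wide because the control held 3 counts in all, and the log2 difference was 6.23. Its level was also 0.457 CPM (3 counts) before treatment.

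Vitvi19g02039 had the largest gain in CPM. It stood at 30237, 30623 and 30734 CPM in the ABA columns and at 11933, 11748 and 12090 CPM in the control columns. It was 2.56-fold higher with ABA (95% counting interval 2.54 to 2.58, log2 difference 1.36), and it was the gene with 21.8% of the summed gain. Before treatment Vitvi19g02039 stood at 3437 CPM, below both libraries of 6 h. It took 3.02% of the counts in the ABA library, 1.19% in the control library and 0.337% in the pre-treatment library.

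On the lower side, under the same conditions, Vitvi16g00733 had the smallest log2 difference, −3.33. It had 3, 5 and 5 counts in the ABA columns (1.90, 2.87 and 3.23 CPM) and 73, 76 and 66 counts in the control columns (31.6, 29.1 and 28.6 CPM). It was 11.1-fold lower with ABA, with a 95% counting interval of 6.38 to 21.3, and stood at 28.6 CPM before treatment, about the control level. Vitvi13g01768 had the largest loss in CPM, with 2752, 2798 and 2893 CPM in the ABA columns and 6038, 6119 and 6090 CPM in the control columns. This was a 2.16-fold lower level with ABA (2.12 to 2.20, log2 difference −1.11). Its pre-treatment level of 4496 CPM lay between the 2 libraries of 6 h.

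**Figure D3:**
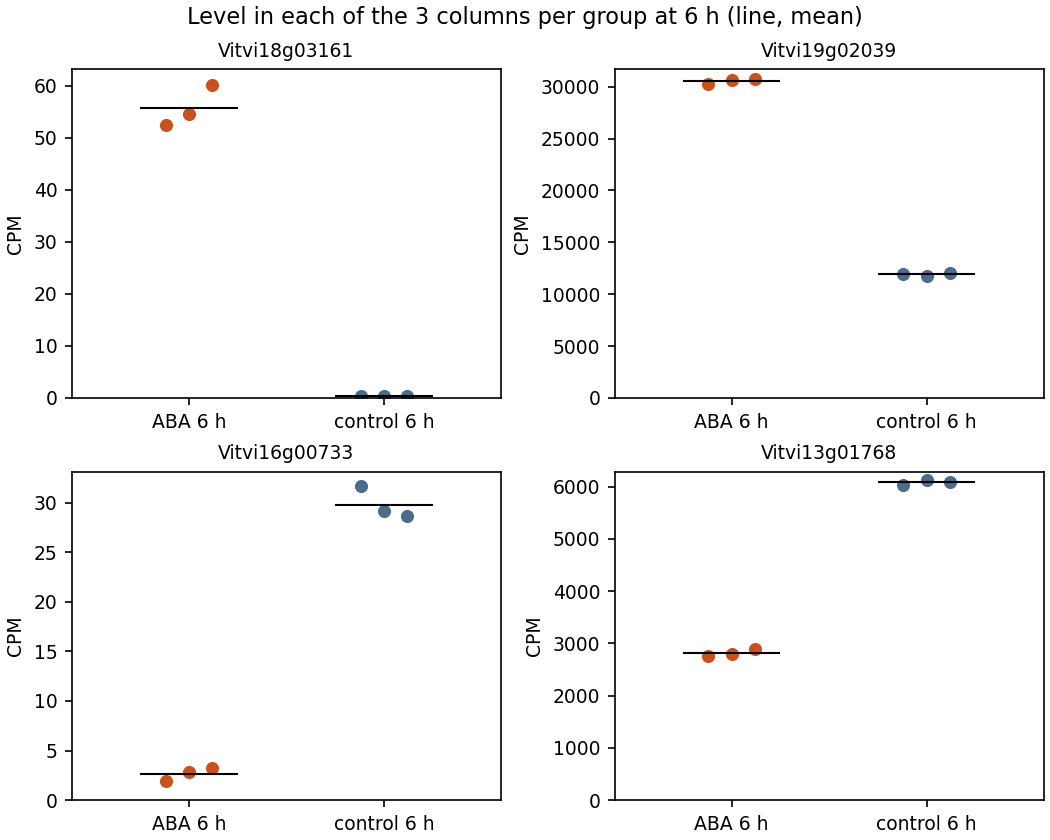
Points are the levels (CPM) of the 4 named genes in each of the 3 ABA columns (left) and 3 control columns (right) of 6 h, with a line at the mean of the columns. Genes were named only where the groups do not overlap, as with 52.5 to 60.1 CPM against 0.383 to 0.433 CPM in Vitvi18g03161.

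Pre-treatment buds served to place both libraries of 6 h. The ABA library had 1652 genes (10.2%) at least 2-fold above pre-treatment and 1451 (8.95%) at least 2-fold below, while the control library had 460 (2.84%) above and 858 (5.29%) below. The higher genes had a median log2 difference from pre-treatment of 1.23 in the ABA library and −0.29 in the control library. In 1040 of the 1708 (60.9%) the ABA library was at least 2-fold above pre-treatment, and in 268 (15.7%) the control library was at least 2-fold below it, with 29 genes in both counts and 429 in neither. The lower genes had medians of −1.29 with ABA and 0.06 in control. In 563 of the 874 (64.4%) the ABA library was at least 2-fold below pre-treatment, and in 85 (9.73%) the control library was at least 2-fold above it. These values share their 6 h libraries with the comparison that chose the genes and describe where the levels lay.

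The libraries of 12 to 72 h were not part of the 6 h difference, but the count filter and the scaling used all bud libraries. Genes low in control could thus be kept through their later ABA libraries, which can raise the shares below. Most of the higher genes were at least 2-fold higher with ABA at 12 and 24 h. Of the 1708 genes, 1086 (63.6%) were at least 2-fold higher at 12 h, where 15.7% of all genes were. The 24 h libraries gave 918 (53.7%, all genes 10.8%) and the 48 h libraries 848 (49.6%, all genes 12.7%). By 72 h the number was 543 (31.8%, all genes 7.89%). These genes made up 42.6%, 52.5%, 41.2% and 42.4% of all genes at least 2-fold higher at those times. At least 2-fold lower were 49, 15, 61 and 54 of the 1708. In order of time their median log2 difference was 1.56, 1.13, 0.98 and 0.58, against −0.04, −0.01, −0.01 and 0.03 over all genes.

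Genes with a larger difference at 6 h also had larger differences later, but the filter can act unequally over these bands. Before treatment the median level was 1.83 CPM in the genes at least 8-fold higher and 4.57 CPM over all 1708. Genes this low without ABA depended most on their later ABA libraries to be kept, so that part of the gradient can come from the filter. The 108 genes at least 8-fold higher had a median log2 difference of 3.54 at 6 h and of 5.39, 4.11, 3.98 and 1.80 at the later times, and 106, 107, 104 and 80 of them were at least 2-fold higher at the 4 later times. The 298 genes 4- to 8-fold higher had medians of 3.39, 2.44, 2.41 and 1.05 at those times. The 1302 genes 2- to 4-fold higher had 1.16, 0.82, 0.73 and 0.45. In both larger bands the median at 12 h thus lay above that at 6 h, which was 2.37 for the middle band and 1.29 for the smallest. Of the 1708 higher genes 324 (19.0%) were at least 2-fold higher at all 4 later times, against 2.44% of all genes, and 387 (22.7%) at none of them, against 74.9%.

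Most of the lower genes were at least 2-fold lower with ABA at 12 h as well. The 12 h libraries had 501 of the 874 (57.3%, all genes 15.1%) and the 24 h libraries 336 (38.4%, all genes 7.73%). By 48 h the number was 254 (29.1%, all genes 11.3%) and by 72 h 187 (21.4%, all genes 7.3%). They made up 20.5%, 26.8%, 13.9% and 15.8% of all genes at least 2-fold lower at those times. Their median log2 difference was −1.18, −0.79, −0.43 and −0.31 in order of time. At least 2-fold higher were 23, 12, 58 and 32 of the 874. At least 2-fold lower at all 4 later times were 51 (5.84%), against 0.851% of all genes, and at none of them 218 (24.9%), against 73.9%. The 6 genes at least 8-fold lower at 6 h stayed at least 2-fold lower in all 6 at 12 and 24 h, in 5 at 48 h and in 1 at 72 h.

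**Figure D4:**
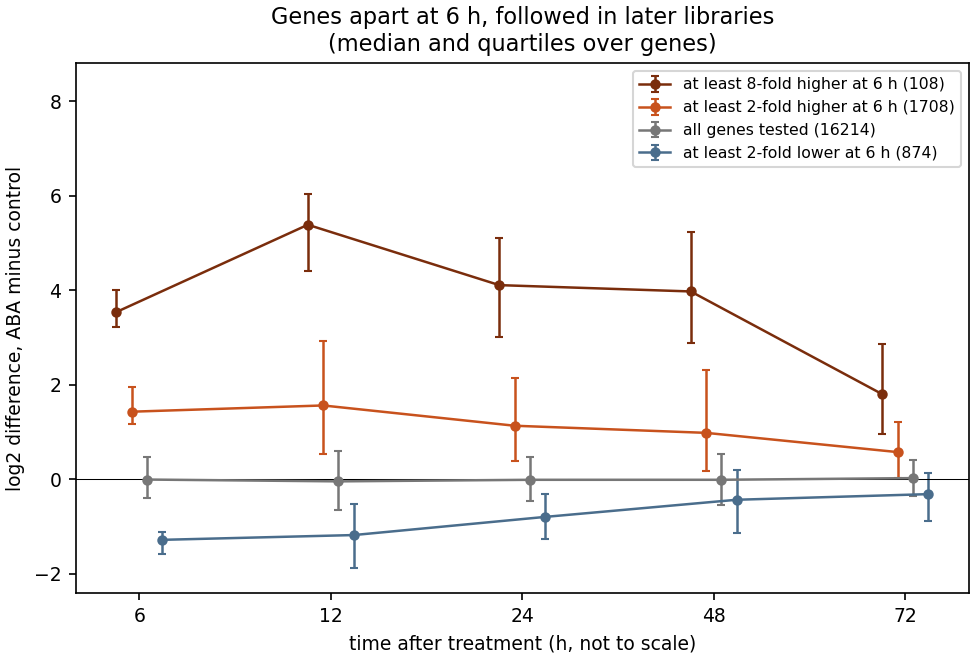
Lines join the median log2 difference, ABA minus control, at 6, 12, 24, 48 and 72 h, with bars from the lower to the upper quartile over genes, for sets of genes chosen at 6 h and for all 16214 genes. The set at least 8-fold higher rises to 5.39 at 12 h and is at 1.80 at 72 h, and the set at least 2-fold lower moves from −1.28 at 6 h to −0.31 at 72 h.

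A test over the later times used the 4 ABA and 4 control libraries of 12 to 72 h with time as a block. It sets the ABA effect against its variation between those times. Of the 1708 genes higher at 6 h, 717 (42.0%) were called higher (edgeR, adjusted p under 0.05), where 7.06% of all genes were called higher and 4.1% lower. They were 62.7% of all genes called higher. Of the 874 lower genes, 165 (18.9%) were called lower and 4 higher, and these 165 were 24.8% of all genes called lower. Among the 108 genes at least 8-fold higher at 6 h, 98 were called higher, with the limit of the filter given above. DESeq2 called 822 of the higher genes (48.1%, all genes 8.82%) and 235 of the lower genes (26.9%, all genes 6.29%). The counts rested on the times in the test. In place of 717 there were 492 without 12 h (all genes 4.19%) and 311 without 24 h (2.31%). Without 48 h there were 238 (1.71%), and without 72 h 978 (14.7%). In place of 165 there were 123 without 12 h (all genes 3.07%), 48 without 24 h (0.771%), 37 without 48 h (0.475%) and 303 without 72 h (12%).

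Whether the effect at 6 h differed from that at 12 to 72 h was tested in the 10 libraries of 6 to 72 h with an added term for ABA at 6 h. No gene passed (0 of 16214, 0%, edgeR), 371 had an unadjusted p under 0.05, and DESeq2 called 0. The test has 3 residual degrees of freedom and uses the variation of the ABA effect between later times as its error, so that a difference at 6 h is not shown to be absent.

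The genes were also followed by where the pre-treatment buds stood. The 1011 higher genes in which the ABA library alone was at least 2-fold from pre-treatment were at least 2-fold higher with ABA in 82.1%, 70.6%, 66.3% and 33.7% at the 4 later times. The 239 higher genes in which the control library alone was at least 2-fold below pre-treatment were so in 30.1%, 27.2%, 20.5% and 36.4%, where all genes were in 15.7%, 10.8%, 12.7% and 7.89%. In the block test of 12 to 72 h, 573 of the 1011 (56.7%) and 38 of the 239 (15.9%) were called higher (edgeR, all genes 7.06%). On the lower side the 557 genes in which the ABA library alone was at least 2-fold from pre-treatment were at least 2-fold lower in 66.4%, 41.7%, 22.3% and 17.1% at the 4 times, and 88 (15.8%, all genes 4.1%) were called lower. The 79 genes in which the control library alone was at least 2-fold above pre-treatment were lower in 31.6%, 48.1%, 58.2% and 44.3%, where all genes were in 15.1%, 7.73%, 11.3% and 7.3%, and 29 (36.7%) were called lower. Of the 429 higher and 232 lower genes in neither class, 83 (19.3%) were called higher and 46 (19.8%) lower. Higher genes low both before treatment and in control could be kept through their ABA libraries of all times. The filter can thus widen the gap between the 1011 and the 239 genes. The differences between these sets were not tested.

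The 4 named genes kept their direction at all 4 later times. Vitvi18g03161 stood at 133, 32.5, 23.1 and 9.55 CPM with ABA at 12, 24, 48 and 72 h, and at 0.391, 0.307, 0.247 and 0.178 CPM in controls, which held 1 or 2 counts each. The ABA libraries lay above every control, and the log2 change over 12 to 72 h was 7.10 (edgeR adjusted p = 0.000104). Low in every control and before treatment, this gene passed the count filter only through its ABA libraries, those of later times included. Its later direction and separation were thus set by the filter and are no independent support. Vitvi19g02039 stood at 90921, 45327, 26700 and 5489 CPM with ABA and at 8067, 5100, 2439 and 1972 CPM in controls. The 12 h value was the highest of all libraries. Its log2 change was 2.94 (edgeR adjusted p = 0.0122), and the call was lost without 12 h (2.71, adjusted p = 0.0516), without 24 h (2.84, 0.111) and without 48 h (2.74, 0.104).

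The named genes lower with ABA differed in how long the gap lasted. Vitvi16g00733 stood at 4.55, 0.956, 2.96 and 2.34 CPM with ABA and at 66.2, 12.4, 3.95 and 4.09 CPM in controls. The gap was wide to 24 h and small at 48 and 72 h, where the control itself was low. Its log2 change of −2.23 did not pass (edgeR adjusted p = 0.0537). It passed with DESeq2 (adjusted p = 0.000663), without the count filter (0.0112) and without 72 h (0.016). Vitvi13g01768 stood at 769, 2287, 1463 and 3195 CPM with ABA and at 5914, 5198, 4711 and 3939 CPM in controls. Its log2 change of −1.50 did not pass either (edgeR adjusted p = 0.0722). It too passed with DESeq2 (adjusted p = 0.000561), without the count filter (0.0271) and without 72 h (0.00512).

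**Figure D5:**
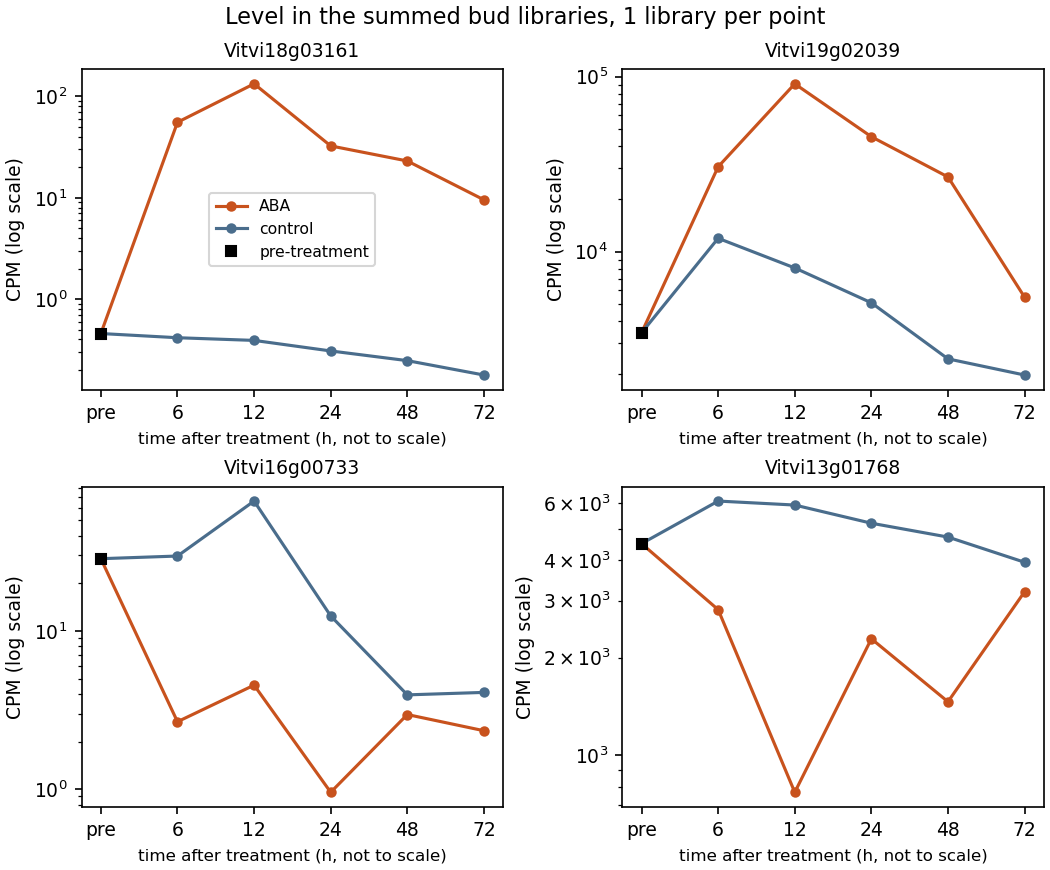
Lines give the level (CPM, log scale) of the 4 named genes in the summed ABA and control bud libraries at 6 to 72 h, starting from the shared pre-treatment library, with 1 library per point. Vitvi19g02039 peaks at 90921 CPM with ABA at 12 h, and in Vitvi16g00733 the ABA and control values draw together at 48 h (2.96 and 3.95 CPM).

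Sprayed leaves were set beside the buds, of which the 2 and 4 h samples were nearest to 6 h. Leaves received a lower dose with a surfactant in another year, so that the values stand side by side and were not tested against each other. Of the 1708 higher bud genes 1156 were tested in leaves, and of the 874 lower bud genes 527. At 4 h 55 of the 1156 (4.76%) rose in leaves, where 0.882% of all leaf genes did, and 2 fell (edgeR, 4 ABA against 4 control libraries). They were 47.4% of the leaf genes that rose at 4 h and were tested in buds. Of the 527 lower bud genes 13 (2.47%) fell in leaves, where 0.673% of all leaf genes did, and 1 rose. At 2 h 5 of the 1156 rose (0.433%, all leaf genes 0.0897%) and 1 fell, and of the 527 none was called (0 by edgeR, 1 lower by DESeq2, all leaf genes 0.00747% lower), with 58 of them lower and 14 higher at an unadjusted p under 0.05 (11% and 2.66%, against 4.17% lower and 3.46% higher over all bud genes tested in leaves). At that level 66 of the 1156 were higher and 61 lower at 2 h. The median log2 change in leaves at 2 h was −0.10 over the higher and −0.13 over the lower bud genes, against −0.01 over all bud genes tested in leaves. At 4 h these medians were 0.12, −0.22 and 0.00. Among 73 tested genes at least 8-fold higher in buds, 10 rose in leaves at 4 h, with a median log2 change of 1.00. Of the 1156 genes 92 (7.96%, all leaf genes 1.97%) rose at 24 h and 106 (9.17%, all leaf genes 1.56%) at 48 h. Of the 527 genes 15 (2.85%, all leaf genes 1.18%) fell at 24 h and 10 (1.9%, all leaf genes 0.65%) at 48 h.

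Of the leaf libraries of 2 and 4 h, 1 (control replicate 1 at 2 h) is among 4 that the labels place on a second flow cell. Without those 4, the higher bud genes that rose were 6 at 2 h and 71 at 4 h, and the lower ones that fell 0 and 19. Single leaf libraries moved the counts too. The 55 became 24 and 34 without ABA replicates 1 and 4, and 27, 28 and 31 without control replicates 1, 2 and 3. The 13 became 4, 4 and 3 without ABA replicates 1, 3 and 4, and 7 and 3 without control replicates 2 and 3. At 2 h the 5 became 2, 1 and 12 without ABA replicates 1, 2 and 4, and 3, 3 and 2 without control replicates 1, 2 and 3.

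Vitvi16g00733 was lower with ABA than in control leaves at 4 h as well. It had 0, 0.580, 0.415 and 0.461 CPM in the 4 ABA leaf libraries, with at most 1 count each, and 5.59, 21.7, 7.85 and 11.0 CPM in the 4 controls. Every ABA leaf library lay below every control, and the log2 change was −4.77 (edgeR adjusted p = 0.00126). The gene passed the leaf count filter only through these 4 control libraries, so that the filter favoured a lower value with ABA. Without the filter the log2 change was −4.75 (edgeR adjusted p = 0.000187). The gene had no count in the 8 pre-treatment leaf libraries, so that at 4 h the ABA leaves stood near the pre-treatment level and the control leaves above it. It had at most 1 count per group at 24 and 48 h. None of the other 3 named genes passed in leaves at the 4 times (edgeR). Vitvi18g03161, close to absent from buds without ABA, was present in every leaf library. Its mean was 22.1 CPM in pre-treatment leaves, and 12.7 CPM in control and 15.5 CPM in ABA leaves at 4 h.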

How the data were processed

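The authors deposited raw counts per gene, whole numbers, in a bud table of 34 columns and a leaf table of 40. FastQC, STAR and DESeq2 stand in the submitters' processing notes. Which build, annotation and strand setting were used is not given in the sources used here, so counts of close gene copies and antisense partners are uncertain. Reads were 75 bp in buds, per the labels' protocols. The 3 columns of a bud group were summed (4 for the 48 h control), which left 11 bud libraries. These were filtered with filterByExpr (minimum count 10) and scaled by TMM, and log2 CPM used a prior count of 2 (edgeR 4.0.16, R 4.3.3). Tests were edgeR quasi-likelihood fits with Benjamini-Hochberg adjusted p under 0.05 over all genes: 4 ABA and 4 control bud libraries with time as a block, 5 and 5 with a term for 6 h, and 40 leaf libraries in 9 groups. Nothing ties a leaf library to a separate vine, so leaf p-values measure the spread between libraries. DESeq2 1.42.0 was an alternative. The scripts were tested on simulated counts. Ratios have exact binomial intervals. Named genes had at least 5 CPM on average and separated columns: the largest and smallest log2 difference, and the largest gain and loss in CPM. The members, lists and rules were chosen with earlier results of these data known.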

Additional observations from a re-analysis of the deposited data

Results flagged for a closer look

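The 4 named genes were checked in the 4 leaf groups of 2 and 4 h, 16 sets of 4 values in all, and in 1 of these a library stood apart. Vitvi16g00733 had 0.683 CPM in ABA replicate 2 at 2 h, from 1 count, and was listed at 0 in the other 3 ABA libraries. The rule used flags every set of 3 zeros and 1 count, so that its usual rate of about 1 in 20 does not hold for this set.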

How the results depend on the processing

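Leaving out 1 of the 6 columns of 6 h gave 1686 to 1749 higher and 867 to 1013 lower bud genes. RLE size factors gave 1583 and 1005, and log2 −1.17 for Vitvi13g01768 and 1.30 for Vitvi19g02039. Without the count filter 2617 and 1486 genes were 2-fold apart, since low genes entered. Over 12 to 72 h the higher genes called numbered 492, 311, 238 and 978 without 12, 24, 48 and 72 h. In the same order the lower genes called numbered 123, 48, 37 and 303. The test of 6 h against later times called 0 genes under each of its 7 alternatives. In leaves at 2 h the higher bud genes that rose numbered 11 by DESeq2 and 12 without the filter, and 1 lower bud gene fell in both. Leaving out single leaf libraries gave 1 to 12 at 2 h, and 24 to 55 (higher) and 3 to 12 (lower) at 4 h. With the replicate number as a block, 51 higher bud genes rose and 12 lower ones fell in leaves at 4 h. Same-numbered ABA and control leaf libraries did not deviate together (r from −0.22 to 0.16), and the labels describe 4 blocks without tying the numbers to them, so the numbers were not taken as pairs. No alternative turned a direction. Below 5 CPM the depth of a single column leaves differences of 2-fold within counting noise.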

Other observations

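The ABA library of 6 h was nearest to the ABA library of 24 h, with 1120 genes (6.91%) at least 2-fold apart. It differed in 2331 genes from ABA at 12 h, in 2582 from control at 6 h, in 3103 from pre-treatment and in 4718 from control at 72 h. The control library of 6 h differed in 1087 genes from control at 24 h, in 1135 from control at 12 h and in 1318 from pre-treatment.

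At 6 h 7 genes had at least 10 counts with ABA and none in control, with 36 counts at most. Against a floor of 3 counts in the control library the largest of them was at least 17.8-fold higher with ABA. All 7 were at least 2-fold higher with ABA at 1 or more later times, where 74.9% of all genes were so at none, and 5 of them had a count before treatment. In the other direction 5 genes had no count with ABA and at least 10 in control, with 29 at most. The largest of them was at least 6.52-fold lower with ABA. At a later time 2 of the 5 were at least 2-fold lower, where 73.9% of all genes were so at none, and 5 genes are too few to tell these apart. The same limit of the filter holds for the 7 and the 5 genes.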
